A study of Mus musculus with 7 samples.

Results

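The EGF family ligands and receptors were examined in Paneth cells (PCs) of mice given tumour necrosis factor (TNF). PCs sit at the bottom of the crypts of the small intestine and release antimicrobial granules. The 10 genes were taken by symbol and comprised 6 ligands (Egf, Tgfa, Areg, Ereg, Btc and Hbegf) and 4 receptors (Egfr, Erbb2, Erbb3 and Erbb4), out of 55414 gene identifiers in the count table. All 10 were found there and 9 passed the filter on low counts, Erbb4 being the exception. C57BL/6J mice had been injected with TNF or phosphate-buffered saline (PBS), and PCs were collected from the small intestine with a cell sorter 15 h later, in both groups alike. Bulk RNA-seq was made of 3 PBS and 4 TNF libraries, which the submitters' design text calls biological replicates from different mice. The sources used here name no dose, sex, age or sorting antibody.

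Ligands of the EGF family are made as membrane-anchored precursors and are released by proteases of the cell surface. They bind ERBB receptors, which pair with each other and signal through the RAS-ERK and PI3K-AKT routes. Egfr binds most of the ligands, Erbb2 has no known ligand of its own, Erbb3 has a weak kinase and binds neuregulins, and Erbb4 binds neuregulins and some EGF ligands. In the crypt, PCs are known as a source of EGF for the neighbouring stem cells, whose growth in culture requires it.

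Libraries held 15511455 to 19193721 counts. The first principal component of log2 CPM (counts scaled to a common library size) held 78.3% of the variance and separated the TNF libraries from the PBS libraries. All 9 PC markers looked at were detected, with summed levels of 187779 to 312134 CPM after PBS and 174506 to 320662 CPM after TNF. Of these, Clps, Habp2 and Mptx2 were called lower after TNF (4.81-fold, 2.40-fold and 2.11-fold) and Mmp7 was called higher (1.84-fold), while Lyz1, Ang4, Defa24, Defa30 and Itln1 were not called. Markers of other cells also moved with the groups. The 6 stem cell markers summed to 2661 to 3811 CPM after PBS and 1056 to 1696 CPM after TNF, the 6 tuft cell markers to 1275 to 2083 CPM after PBS and 219 to 579 CPM after TNF, the 8 enterocyte markers to 162 to 259 CPM after PBS and 14.7 to 20.1 CPM after TNF, and the 6 goblet cell markers to 6662 to 12806 CPM after PBS and 6162 to 6783 CPM after TNF. Of these lists, every tested stem and tuft cell marker was lower after TNF, as were 5 of 6 tested enterocyte markers and 4 of 6 goblet cell markers. The goblet cell factor Spdef was higher (2.704-fold). The goblet cell sums overlapped between the groups. The 8 enteroendocrine markers summed to 48.8 to 115 CPM after PBS and 57.0 to 89.3 CPM after TNF. Within this list Tac1 was called higher, from 1.71 to 41.1 CPM in group means (24.4-fold). Gip, Chgb and Sct were called lower (15.9-fold, 5.43-fold and 1.69-fold), and the other 4 were not called. Leukocyte markers summed to 12.6 to 26.8 CPM after PBS and 7.89 to 14.0 CPM after TNF, mostly from Ptprc, with Cd3e at 0 in every library. Stromal and endothelial markers summed to no more than 0.447 CPM in any library. In bulk samples, fewer cells of a type and less RNA per cell cannot be told apart, and the part of these shifts in the values given here was not tested.

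The genes that set the pattern of the family are Areg, which had the largest fitted rise with all libraries, Egf, the ligand that fell, and Egfr and Erbb2, receptors that moved in opposite directions. The 250 bases before their start sites are shown 5′ to 3′ on the strand of the gene, from RefSeq (GRCm38.p6). Capitals mark matches to the motifs searched. Areg lies at chr5:91139349-91139598, plus strand. Egf lies at chr3:129755323-129755572, minus strand, and Egfr and Erbb2 lie at chr11:16751953-16752202, plus strand, and chr11:98412234-98412483, plus strand.
Areg: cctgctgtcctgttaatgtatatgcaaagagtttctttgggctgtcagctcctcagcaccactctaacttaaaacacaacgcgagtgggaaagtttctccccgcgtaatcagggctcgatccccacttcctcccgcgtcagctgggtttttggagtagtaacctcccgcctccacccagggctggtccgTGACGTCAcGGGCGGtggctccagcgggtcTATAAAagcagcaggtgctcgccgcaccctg
Egf: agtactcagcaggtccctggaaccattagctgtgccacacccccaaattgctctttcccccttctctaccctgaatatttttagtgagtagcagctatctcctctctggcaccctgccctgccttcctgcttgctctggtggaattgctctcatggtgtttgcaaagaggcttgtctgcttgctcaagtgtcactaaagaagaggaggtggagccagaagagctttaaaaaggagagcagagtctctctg
Egfr: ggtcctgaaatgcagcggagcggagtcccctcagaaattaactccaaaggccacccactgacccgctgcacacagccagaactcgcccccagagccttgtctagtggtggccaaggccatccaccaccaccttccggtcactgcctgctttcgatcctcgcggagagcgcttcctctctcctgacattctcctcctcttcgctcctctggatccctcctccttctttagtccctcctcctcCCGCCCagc
Erbb2: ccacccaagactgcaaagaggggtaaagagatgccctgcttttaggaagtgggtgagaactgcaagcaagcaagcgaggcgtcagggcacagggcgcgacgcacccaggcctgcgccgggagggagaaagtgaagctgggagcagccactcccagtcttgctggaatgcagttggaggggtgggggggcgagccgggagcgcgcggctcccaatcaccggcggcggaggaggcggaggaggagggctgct

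The table of promoters matched 7 of the 10 members with 8 windows, since Egf has 2 starts in it. Ereg, Hbegf and Erbb3 had no window and were not searched. The Areg window held a TATA box (TATAAA, searched on the sense strand) 31 bases before the start. A GC box (GGGCGG, searched on both strands) lay on the sense strand 52 bases before the start. The cyclic AMP response element TGACGTCA lay 61 bases before the start, on both strands because it is a palindrome. Among 32817 windows of the same length, 7.6% held this TATA box, 32.7% the GC box and 1.55% the cyclic AMP response element. GC boxes also stood 9 bases before the start of Egfr and at 2 places before that of Tgfa. The AP-1 motif TGANTCA (6.75% of all windows, both strands) and the kappaB consensus (3.9%, both strands) matched none of the 8 windows. At such shares, the lack of a match in 8 windows says little about the family. The Btc, Erbb2 and Erbb4 windows and both Egf windows held none of the 5 motifs. A match here is a description of the letters and not a site of binding.

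Of the 9 tested members, 6 rose and 3 fell after TNF, so all of them were called at an edgeR adjusted p under 0.05. Among all genes, 59.6% of 14329 tested genes were called, 29.5% as higher and 30.1% as lower. Rises were found for Areg, Ereg, Btc, Hbegf and Tgfa among the ligands and for Egfr among the receptors, and falls for Egf, Erbb2 and Erbb3. For each of the 9, every TNF library lay on the same side of every PBS library, as was found for 60.7% of all tested genes. The median log2 fold change was 2.12 over the 9 members and 0.0017 over all tested genes. The plot of the 10 genes by library shows these values.

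**Figure D1:**
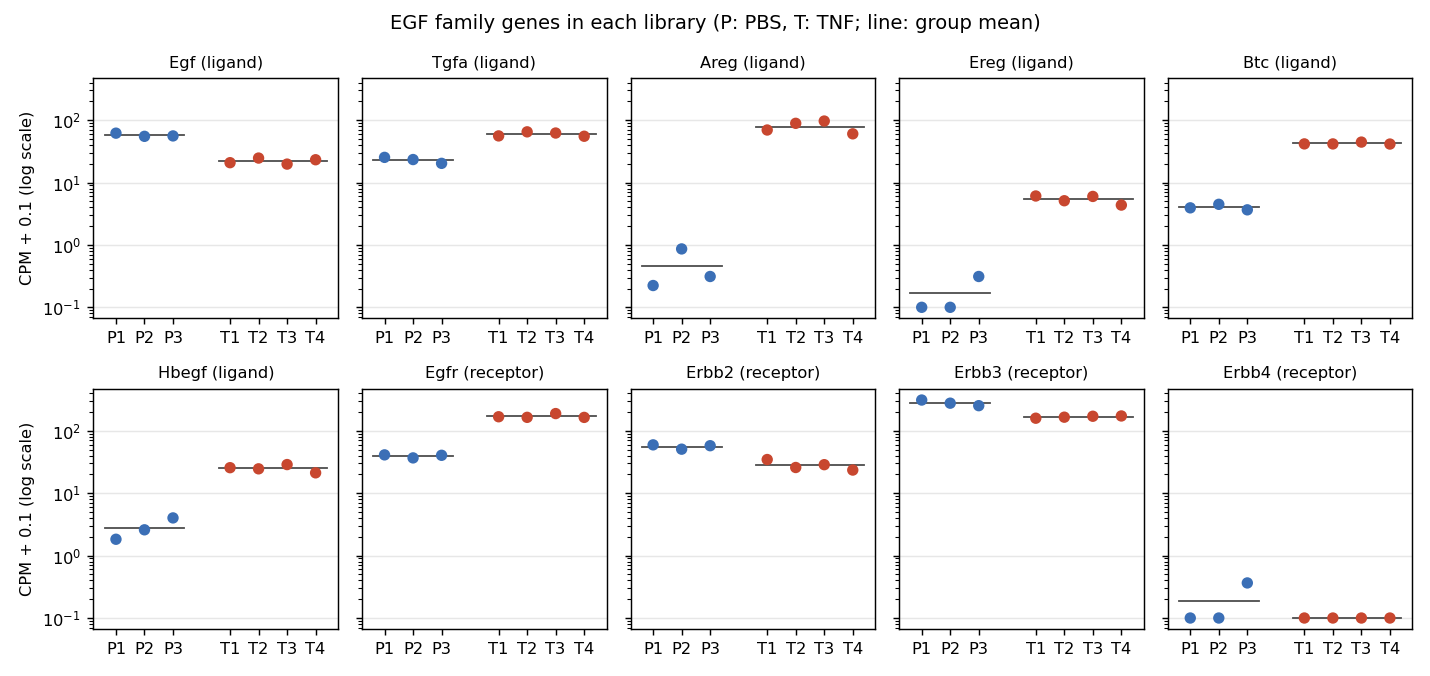
Levels of the 10 EGF family genes in each library, as CPM + 0.1 on a log scale, with blue points for the 3 PBS libraries (P1 to P3), red points for the 4 TNF libraries (T1 to T4) and lines at the group means. Areg goes from under 1 CPM in every PBS library to 60.2 CPM or more in every TNF library, and Egf, Erbb2 and Erbb3 are lower in every TNF library.

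With all libraries, Areg had the largest fitted change among the ligands. Areg (ENSMUSG00000029378, chromosome 5, 91287451 to 91296291, plus strand, GRCm39, as for all genes below) encodes amphiregulin, an Egfr ligand known from tissue repair. Its PBS libraries held 2, 15 and 4 counts and its TNF libraries held 1240, 1507, 1804 and 921. These correspond to 0.123, 0.763 and 0.212 CPM after PBS and 69.3, 88.7, 96.5 and 60.2 CPM after TNF. Even the lowest TNF library was far above the highest PBS library, and the rise was 202-fold, or 7.66 ± 0.36 on the log2 scale (SE, edgeR adjusted p = 1.22e-08). By log2 fold change it ranked 18 among 8530 tested genes whose mean reached 10 CPM. The size rests on a few control counts: without PBS replicate 2, which held 15 of the 21 PBS counts, the fold was 443. That library also had the highest summed level of the tuft cell, enterocyte and leukocyte markers among all 7, with 2083, 259 and 26.8 CPM, and their part in these counts was not tested.

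Ereg (ENSMUSG00000029377, chromosome 5, 91222157 to 91241505, plus strand) encodes epiregulin, which binds Egfr and Erbb4. It was close to absent after PBS, with 0, 0 and 4 counts, against 107, 85, 110 and 65 counts after TNF. Levels after TNF were 5.98, 5.004, 5.88 and 4.25 CPM, a low level beside that of Areg in the same libraries. The fitted rise was 66.3-fold (log2 fold change 6.05 ± 0.66, SE, edgeR adjusted p = 3.05e-06). All 4 control counts came from PBS replicate 3. Without that library the PBS group is at 0, and the rise is at least 63.7-fold against a floor of 3 counts over the group, so its order with Areg is then not known. This floor, and the one used for Fosl1 later, cover only the counting error of the group at 0. A non-coding gene on the opposite strand, Gm19610, spans all of Ereg and had 32 counts in all libraries together, and strand use in counting is unknown.

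Btc (ENSMUSG00000082361, chromosome 5, 91505120 to 91550883, minus strand) encodes betacellulin, a ligand of Egfr and Erbb4. Its levels were 3.83, 4.37 and 3.55 CPM after PBS and 41.5, 41.4, 44.3 and 41.2 CPM after TNF. The TNF libraries were nearly level with each other, and Btc rose 10.7-fold (log2 fold change 3.42 ± 0.14, SE, edgeR adjusted p = 3.6e-10). Hbegf (ENSMUSG00000024486, chromosome 18, 36637980 to 36649677, minus strand) encodes heparin-binding EGF-like growth factor, also a ligand of Egfr and Erbb4. It went from 1.73, 2.49 and 3.92 CPM to 25.5, 24.5, 28.7 and 21.1 CPM. The PBS libraries differed among themselves by more than the TNF libraries did in proportion, yet the groups stood well apart (9.11-fold, log2 fold change 3.19 ± 0.24, SE, edgeR adjusted p = 8.78e-08).

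Tgfa (ENSMUSG00000029999, chromosome 6, 86172041 to 86252728, plus strand) encodes transforming growth factor alpha, an Egfr ligand made by many epithelia. PBS libraries held 25.2, 23.2 and 20.2 CPM and TNF libraries 55.7, 64.8, 62.0 and 55.0 CPM. Its rise was the smallest among the ligands that rose, 2.60-fold (log2 fold change 1.38 ± 0.12, SE, edgeR adjusted p = 3.53e-07). Egf (ENSMUSG00000028017, chromosome 3, 129470410 to 129549093, minus strand), the ligand that gives the family its name, moved the other way. It fell from 61.7, 54.9 and 55.7 CPM to 20.7, 24.6, 19.6 and 23.1 CPM, and the libraries of each group lay close together. The level was 2.61-fold lower after TNF (log2 fold change -1.39 ± 0.12, SE, edgeR adjusted p = 2.36e-07). The stem, tuft and enterocyte marker sums and 4 of 6 goblet cell markers were lower in the same libraries. Their part in the fall of Egf was not tested.

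TNF replicate 4 was the lowest of the TNF libraries for all 6 genes that rose. The gap to the next TNF library was small for Egfr (164.0 against 164.3 CPM), Btc (41.25 against 41.45 CPM) and Tgfa (55.0 against 55.7 CPM). TNF replicate 4 also had the highest PC marker sum of all libraries, 320662 CPM. Its share of counts from alpha-defensins and Lyz1 was 28.8%, against 19.7% to 24.7% in the other TNF libraries. Their part in the lower values was not tested. For each of the 6 genes it was still above every PBS library.

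Of the receptors, Egfr (ENSMUSG00000020122, chromosome 11, 16702198 to 16868158, plus strand) was the one that rose. It encodes the EGF receptor. Levels were 41.1, 36.7 and 40.4 CPM after PBS and 168, 164, 189 and 164 CPM after TNF. Every TNF library was far above every PBS library, and Egfr was 4.35-fold higher after TNF (log2 fold change 2.12 ± 0.11, SE, edgeR adjusted p = 2.37e-09). A non-coding gene on the opposite strand, Eldr, overlaps its annotated span by 17670 bases. Eldr went the other way, from 192 counts in the PBS libraries together to 7 in the TNF libraries, and was small beside the 2150 and 11834 counts of Egfr.

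Erbb2 (ENSMUSG00000062312, chromosome 11, 98303203 to 98328542, plus strand) encodes the receptor that other ERBB proteins pair with. It fell from 59.5, 50.7 and 57.6 CPM to 34.5, 25.7, 28.6 and 23.4 CPM. The lowest PBS library still stood above the highest TNF library, and the level was 1.99-fold lower after TNF (log2 fold change -0.99 ± 0.13, SE, edgeR adjusted p = 2.31e-05). Its annotated end overlaps the gene Mien1 on the opposite strand by 9 bases, and Mien1 was not called (adjusted p = 0.185).

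Erbb3 (ENSMUSG00000018166, chromosome 10, 128403392 to 128425811, minus strand) had the highest CPM of the family after PBS. Its libraries held 311, 277 and 253 CPM after PBS and 159, 165, 171 and 173 CPM after TNF. This was a 1.68-fold lower level after TNF (log2 fold change -0.75 ± 0.10, SE, edgeR adjusted p = 2.79e-05), the smallest change among the tested members. Erbb2 and Erbb3 fell in the libraries in which the stem, tuft and enterocyte marker sums and 4 of 6 goblet cell markers were lower. The part of these markers was not tested. Erbb4 (ENSMUSG00000062209, chromosome 1, 68071345 to 69147619, minus strand) was not detectable at this depth in 6 of 7 libraries. All of its 5 counts came from PBS replicate 3, so it was too low to test and no fold is given.

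To compare genes with each other, CPM was divided by the length of the canonical transcript in kb (CPM per kb). This assumes that reads fall along the whole transcript, which the sources used here do not state. After PBS the order of the ligands by mean level was Egf (10.1 ± 0.652 CPM per kb, SD, n = 3), Tgfa (4.85 ± 0.535), Btc (1.35 ± 0.144), Hbegf (1.14 ± 0.467), Areg (0.2995 ± 0.283) and Ereg (0.0159 ± 0.0275). The libraries of Btc and Hbegf overlapped, so their order is not fixed, while the other neighbours did not overlap. After TNF the order was Areg (64.4 ± 13.8 CPM per kb, SD, n = 4), Btc (14.5 ± 0.509), Tgfa (12.6 ± 1.01), Hbegf (10.5 ± 1.31), Egf (3.86 ± 0.393) and Ereg (1.19 ± 0.183). Here Tgfa and Hbegf overlapped. Egf thus went from the highest of the 6 ligands to the fifth, and Areg from the fifth to the highest.

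In the receptors, Erbb3 was highest in both groups, at 46.5 ± 4.87 CPM per kb after PBS (SD, n = 3) and 27.7 ± 1.03 after TNF (SD, n = 4). Below it, the order changed. Erbb2 had 10.96 ± 0.906 and Egfr 3.85 ± 0.230 CPM per kb after PBS. After TNF, Egfr had 16.8 ± 1.16 and Erbb2 5.50 ± 0.943 CPM per kb, and no neighbours in either order overlapped. Erbb4 was lowest throughout. With the union of all annotated exons as the length, a choice made after the data were seen, every rank of the group means was the same. In TNF replicate 2, however, Tgfa then held 9.56% of the summed ligand level and Btc 9.19%. The order of Btc and Tgfa after TNF thus depends on the length used.

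Summed over the 6 ligands, the level was 17.7 ± 0.582 CPM per kb after PBS (SD, n = 3) and 107 ± 16.1 after TNF (SD, n = 4), a ratio of 6.03. Egf made up 56.8 ± 2.41% of this sum after PBS and 3.68 ± 0.726% after TNF. Areg went from 1.69 ± 1.60% to 59.7 ± 3.91% (SD). The share of Tgfa went from 27.3 ± 2.15% to 11.9 ± 1.04% although its level rose, because the sum rose more. Btc took 7.60 ± 0.768% and 13.7 ± 1.80%, and Hbegf 6.48 ± 2.86% and 9.84 ± 0.843%. The Hbegf shares overlapped between the groups, at 3.96 to 9.59% after PBS and 8.84 to 10.9% after TNF. With union exon lengths Egf took 48.2% after PBS and 2.04% after TNF, Areg 3.05% and 71.0%, Btc 8.82% and 10.5%, and Hbegf 5.51% and 5.46%. The Btc shares then overlapped between the groups (8.40 to 9.65% and 9.17 to 12.4%), so the higher shares of Btc and Hbegf depend on the length used.

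The sum over the 4 receptors was 61.3 ± 5.29 CPM per kb after PBS (SD, n = 3) and 49.96 ± 1.71 after TNF (SD, n = 4), a ratio of 0.815. Its make-up shifted towards Egfr, which held 6.31 ± 0.527% after PBS and 33.5 ± 1.18% after TNF. Erbb3 went from 75.8 ± 2.15% to 55.5 ± 2.25%, and Erbb2 from 17.9 ± 1.61% to 11 ± 1.86%. The plot of the pools by library shows that the 7 libraries fall into the 2 labelled groups on these shares, which are given as a description without a test.

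**Figure D2:**
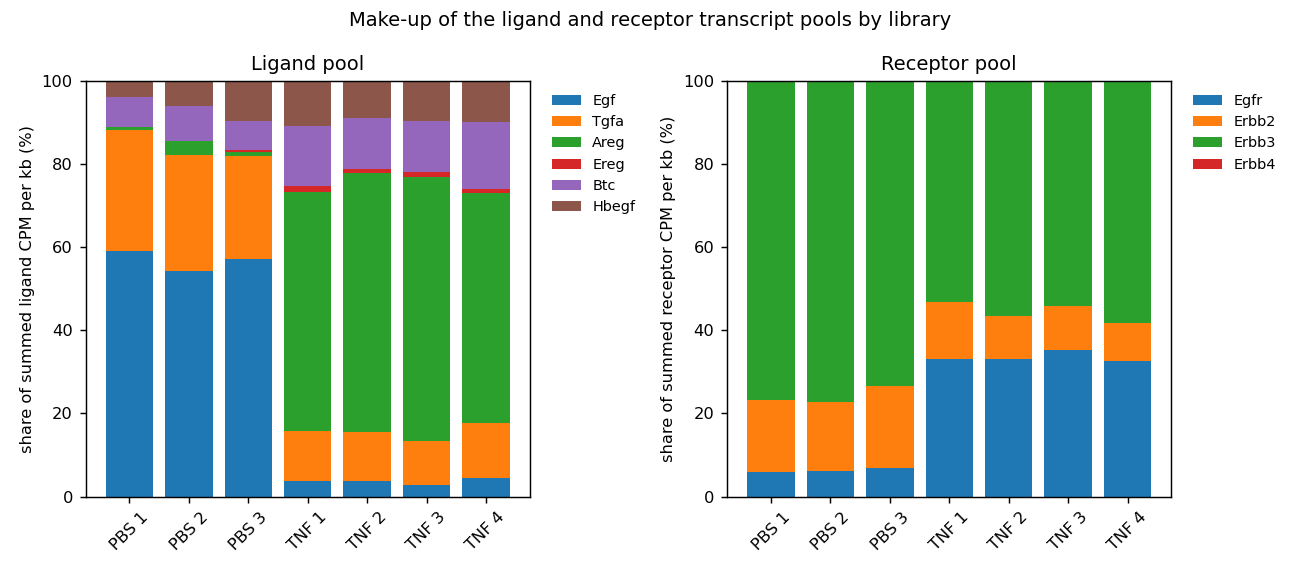
Share of each gene, in percent, in the summed CPM per kb of the 6 ligands (left) and of the 4 receptors (right), as stacked bars for each of the 3 PBS and 4 TNF libraries. Egf takes 54.3 to 59.1% of the ligand sum in PBS libraries and Areg 55.4 to 63.6% in TNF libraries, while Egfr goes from 5.97 to 6.91% of the receptor sum to 32.5 to 35.2%.

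Areg, Ereg and Btc share a place in the genome. Together with Epgn, which encodes a further Egfr ligand, epigen, they lie within 375.6 kb of chromosome 5 (91175323 to 91550883), and 45.9 kb separate the end of Ereg from the start of Areg. Epgn had 2 counts in the PBS libraries together and 12 in the TNF libraries and was too low to test. Tested protein-coding genes nearby with more than 3 PBS counts were Mthfd2l, a mitochondrial enzyme of folate metabolism, with 0.74 ± 0.21 on the log2 scale (SE, edgeR adjusted p = 0.00776), Parm1, a mucin-like membrane protein, at 2.13 ± 0.14 (3.3e-08), and Rassf6, which fell by 1.15 ± 0.12 (1.51e-06). The chemokine genes Cxcl1 and Cxcl2, also within 500 kb, had 0 counts in all PBS libraries and 133 to 554 and 1161 to 1866 counts in the TNF libraries. Cxcl5 had 3 counts in the PBS libraries together and 43 to 83 in each TNF library. These chemokine genes were called higher (edgeR adjusted p = 0.000222 for Cxcl1, 4.2e-08 for Cxcl2 and 1.6e-05 for Cxcl5). The fitted log2 fold changes of Cxcl1 and Cxcl2, 11.1 and 13.7, were above that of Areg, but with 0 PBS counts their size is not fixed. That of Cxcl5 was 5.89, above that of Btc. Ppbp and Cxcl15 were at 0 throughout. Among the tested genes of the interval, Rassf6 was the one that fell, and Mthfd2l had the smallest rise.

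**Figure D3:**
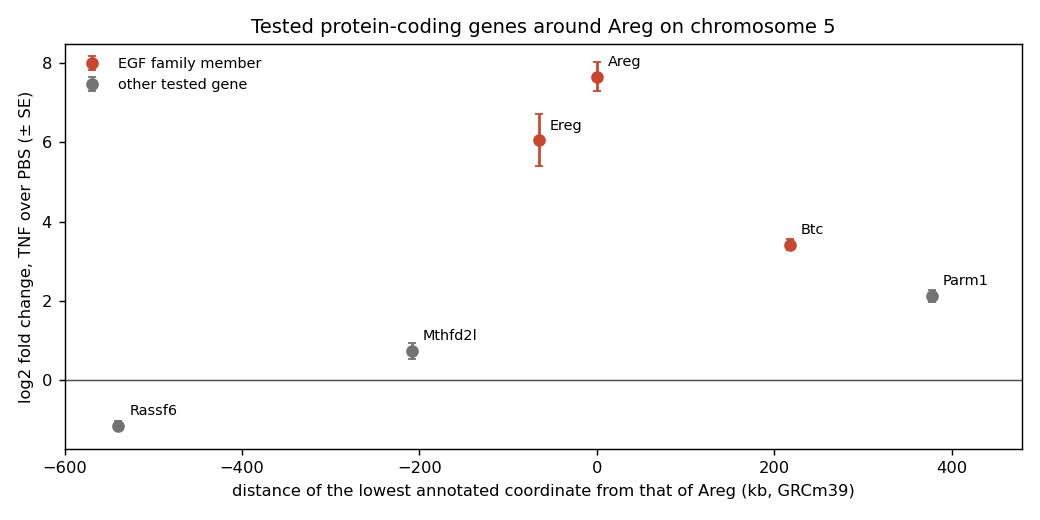
Log2 fold change with SE for tested protein-coding genes with more than 3 PBS counts around Areg, against the distance in kb of their lowest annotated coordinate from that of Areg on chromosome 5 (GRCm39), with EGF family members in red and other genes in grey. Areg, Ereg and Btc lie at log2 fold changes of 7.66, 6.05 and 3.42, above Parm1 (2.13), Mthfd2l (0.74) and Rassf6 (-1.15). The cut leaves out Cxcl2, Cxcl1 and Cxcl5, called higher with fitted log2 fold changes of 13.7, 11.1 and 5.89. These had 0, 0 and 3 PBS counts, beside 4 for Ereg.

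Of Epgn and the neuregulin genes Nrg1, Nrg2, Nrg3 and Nrg4, only Nrg4 passed the filter. Nrg4 (ENSMUSG00000032311, chromosome 9, 55121336 to 55234128, minus strand), which encodes a ligand of Erbb4, had 2.65, 2.75 and 3.50 CPM after PBS and 0.335, 0.294, 0.214 and 0.261 CPM after TNF. It fell in every TNF library below every PBS library and was 10.5-fold lower (log2 fold change -3.39 ± 0.46, SE, edgeR adjusted p = 2.57e-05). Nrg1 had 3 counts in 1 PBS library, Nrg2 had 3 counts in 2 TNF libraries, and Nrg3 had none.

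Of the 6 genes for ligand shedding, 2 rose (33.3%, near the 29.5% of the whole table), none fell and 4 did not pass the test. Adam17 and Adam10, which encode the main sheddases of the family, were not called, with 27.5 ± 3.48 and 28.7 ± 2.59 CPM for Adam17 and 127 ± 12.8 and 117 ± 12.5 CPM for Adam10 (SD, n = 3 PBS and n = 4 TNF, edgeR adjusted p = 0.704 and 0.388). Rhbdf2, which encodes iRhom2, a partner that brings the Adam17 protein to the cell surface, rose from 30.9, 25.1 and 30.7 to 145, 148, 113 and 141 CPM (log2 fold change 2.24 ± 0.13, SE, edgeR adjusted p = 8.59e-09). Its paralog Rhbdf1 was not called (20.5 ± 3.00 and 24.0 ± 4.50 CPM, adjusted p = 0.243). Rhbdl2, a rhomboid protease that can cleave EGF precursors, rose from 1.05, 0.712 and 1.54 to 24.7, 25.2, 21.6 and 27.4 CPM, the largest rise of this list (log2 fold change 4.48 ± 0.24, SE, edgeR adjusted p = 3.67e-09). Frmd8, which stabilises the iRhom and Adam17 complex, was at 14.2 ± 2.20 and 18.1 ± 2.32 CPM (adjusted p = 0.0701). It passed the threshold without PBS replicate 2 (0.0365) and without TNF replicate 4 (0.0309).

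Genes that restrain the receptors or turn them over went both ways, with 4 of 12 higher, 4 lower and 4 not called, or 33.3% in each direction, near the 29.5% and 30.1% of the whole table. Errfi1, an inducible inhibitor of the ERBB kinases, rose from 22.3 ± 1.84 to 75.4 ± 14.9 CPM (SD, n = 3 and n = 4, log2 fold change 1.76 ± 0.15, SE, edgeR adjusted p = 3.29e-07). Lrig1, a membrane inhibitor of ERBB receptors that also marks crypt stem cells, fell from 228 ± 24.0 to 109 ± 11.7 CPM (log2 fold change -1.07 ± 0.11, adjusted p = 2.49e-06), in the libraries in which the stem cell marker sum was lower, and the part of that shift was not tested. Its relative Lrig3 rose (log2 fold change 1.17 ± 0.12, adjusted p = 2.09e-06). Socs5, a suppressor that lowers Egfr, fell from 16.4 ± 1.79 to 3.94 ± 1.03 CPM (log2 fold change -2.06 ± 0.22, adjusted p = 2.15e-06).

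In the RAS-ERK cascade, 9 of 16 genes were higher (56.2%), 3 lower (18.8%) and 4 not called, beside 29.5% higher and 30.1% lower over the whole table. The adaptor Grb2, which links receptors to RAS, rose from 46.7 ± 1.09 to 95.2 ± 4.60 CPM (SD, n = 3 and n = 4, log2 fold change 1.03 ± 0.10, SE, edgeR adjusted p = 7.45e-07). On the same scale Gab1, a docking protein, fell by 1.01 ± 0.15 (adjusted p = 4.06e-05) and Mapk3, which encodes an ERK kinase, fell by 0.70 ± 0.14 (adjusted p = 0.000749). The median log2 fold change of the list was 0.43.

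In the PI3K-AKT branch, 4 of 10 genes were higher (40%), 5 lower (50%) and 1 not called, beside the same 29.5% and 30.1%. The genes of the kinase Akt1 and of the regulatory subunits moved apart. Akt1 rose from 152 ± 5.94 to 374 ± 34.8 CPM (SD, n = 3 and n = 4, log2 fold change 1.30 ± 0.11, SE, edgeR adjusted p = 2.82e-07). The regulatory subunit genes Pik3r3 and Pik3r2 had log2 fold changes of -1.43 ± 0.19 and -1.30 ± 0.13 (adjusted p = 1.77e-05 and 1.71e-06).

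Among feedback regulators and targets of ERK signalling, 12 of 17 were higher (70.6%, beside 29.5% of the whole table), 2 lower (11.8%, beside 30.1%) and 3 not called, with a median log2 fold change of 0.88. Fosl1, an AP-1 subunit, had 0 counts in every PBS library and 103, 146, 111 and 67 counts in the TNF libraries, a rise of at least 113-fold against a floor of 3 counts over the PBS group (edgeR adjusted p = 4.76e-07). Spry4, a Sprouty inhibitor of receptor signalling, rose from 0.247, 0.254 and 0.636 to 9.45, 11.01, 8.66 and 7.97 CPM (log2 fold change 4.58 ± 0.36, SE, adjusted p = 1.4e-07). Etv5, an ETS factor, fell from 17.0, 11.7 and 11.5 to 4.30, 2.94, 1.66 and 2.61 CPM (log2 fold change -2.21 ± 0.28, adjusted p = 1.42e-05), and Ccnd1, which encodes a cyclin, fell by 0.79 ± 0.12 on the same scale (adjusted p = 5.35e-05). Over all 6 pathway lists, 31 of 62 tested genes were higher (50%) and 15 lower (24.2%), against 29.5% and 30.1% of the whole table. With scaling by total counts only, 23 were higher and 17 lower, beside 3147 higher and 4614 lower genes over the whole table.

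**Figure D4:**
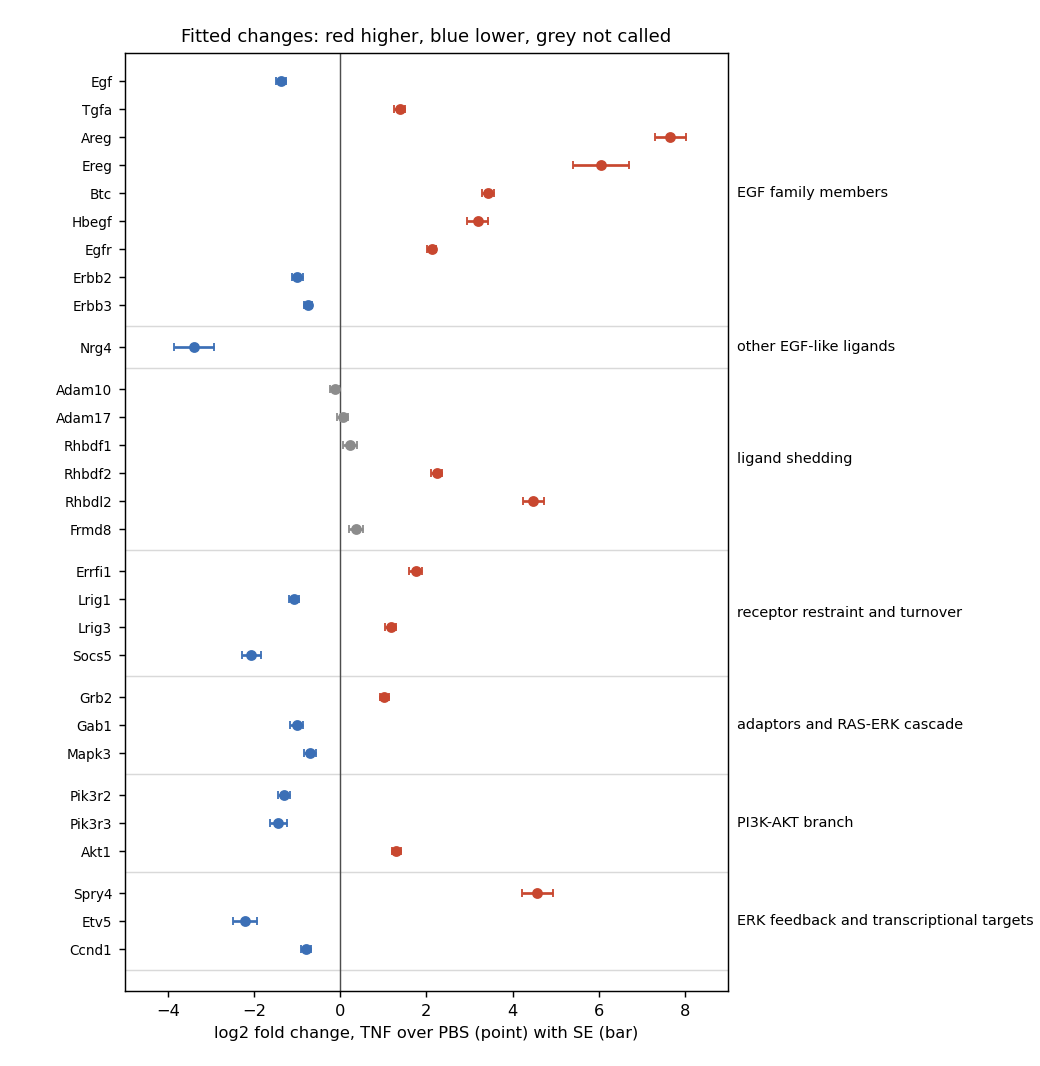
Log2 fold change of TNF over PBS with SE for the 9 tested EGF family members and for the named genes of the pathway lists, in red where higher, blue where lower and grey where not called. Areg (7.66) and Ereg (6.05) lie farthest to the right and Nrg4 (-3.39) farthest to the left, and Fosl1 is left out because it had 0 counts after PBS.

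Finally, genes of like pattern were looked up by Pearson r of log2 CPM over the 7 libraries, which does not measure the size of a change. The nearest to each member were taken among 8420 genes of at least 10 CPM on average. They were Cog5 for Egf, Nploc4 for Tgfa, Sulf2 for Areg, Vps11 for Ereg, Aprt for Btc, Nubp2 for Hbegf, Cldn4 for Egfr, Gca for Erbb2 and Ffar2 for Erbb3, each with r of at least 0.998. The 7 points share the shift between the groups, and between 613 and 1680 genes had an r over 0.95 for each member. Sulf2, which encodes an extracellular sulfatase, went from 2.54 to 97.8 CPM in group means, and Cldn4, a claudin of tight junctions, from 90.6 to 862 CPM. Other changes were much smaller than that of the member. Vps11, nearest to Ereg, went from 32.5 to 53.9 CPM, and Nubp2, nearest to Hbegf, from 15.3 to 29.8 CPM.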

How the data were processed

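Bulk RNA-seq of sorted PCs was analysed from the table of raw counts that the authors deposited, with whole numbers of reads per Ensembl gene and 1 column per library. The submitters' processing notes name FastQC, Trimmomatic 0.39, STAR 2.7.10a and DESeq2 and the builds mm10 and mm39, without a role for each. How reads were assigned to genes, with which annotation and whether by strand, is not given in the sources used here. Symbols, lengths and coordinates came by identifier from GENCODE M39 (GRCm39), which held 54749 of 55414 identifiers and can differ from the annotation used for counting. Nrg1 names 2 identifiers, and the one with the longer exons was used.

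The main test was edgeR 4.0.16's quasi-likelihood fit in R 4.3.3 (all 7 libraries, no covariates, filterByExpr, TMM, robust, two-sided), with Benjamini-Hochberg adjustment over 14329 genes and a threshold of 0.05. CPM used TMM-scaled library sizes, and SE was taken from the fold change and the F statistic. The fit was tested on simulated data drawn from the tested genes. Few genes were changed there, equally up and down, so the fit was not tested under a shift as broad as in these data. The share of changed genes that the fit had to recover was lowered after a stricter first requirement was missed. Members and lists were chosen with earlier results of these data known, so counts over them are descriptions. All members were named, every tested gene of lists with up to 6 genes, and of longer lists the 2 largest rises and falls among called genes, except some items that are not reported here. Genes of like pattern left out provisional Gm and Rik symbols. The other genes near Areg were taken by position. Promoter windows came from RefSeq (GRCm38.p6). P-values set the difference between the groups against the spread between libraries, which the design text assigns to different mice. No batch is labelled.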

Additional observations from a re-analysis of the deposited data

Results flagged for a closer look

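Within the TNF group, the distance of the outermost library from its nearest neighbour was compared with the whole range of the 4 libraries, and set against the 95% limit of Dixon for 4 samples. Of 32 genes looked at, 4 passed, and chance flags about 1 in 20 groups. The ratio was 0.924 for Btc, where TNF replicate 3 stood at 44.3 CPM and the others at 41.2 to 41.5 CPM. It was 0.841 for Egfr, where the same library stood at 189 CPM and the others at 164 to 168 CPM. For Frmd8 it was 0.832, with TNF replicate 4 at 14.7 CPM below the others at 18.9 to 19.7 CPM. It was also 0.832 for Lrig1, with TNF replicate 4 at 126 CPM above the others at 101 to 105 CPM. For Btc, Egfr and Lrig1 the library that stood apart did not reach the range of the PBS group, whereas for Frmd8 the groups overlapped. Groups of 3 were not looked at.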

How the results depend on the processing

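Alternatives were other scalings (DESeq2 size factors, total counts only, scaling without alpha-defensins and Lyz1), a low-count filter left out or set at 1 CPM in 3 libraries, the DESeq2 test, a replicate block and the removal of each library in turn. Across these 14 settings all 9 tested members kept their direction and their call, in 126 of 126 values, with the largest adjusted p at 0.00198 (Erbb3). The counts of 6 higher and 3 lower members did not change. With a requirement of at least 2-fold, chosen after seeing the data, 1 member was lower (Egf) and 4530 genes were called over the whole table in place of 8543, since smaller changes are left out by construction. Removing single libraries gave 7663 to 8625 called genes. The log2 fold change of Areg ran from 7.30 to 8.79 and that of Ereg from 5.47 to 6.26, leaving out the setting without PBS replicate 3, in which its PBS group is at 0. Both rest on few PBS counts. Adam17, which was not called, turned to -0.11 with total counts only and to -0.031 without PBS replicate 1 (up to 0.13 without PBS replicate 3), and the cause was not tested. Scaling by total counts shifted the median of all genes on the log2 scale from 0.0017 to -0.16. With the replicate number as a block, 7131 genes were called, again with 6 members higher and 3 lower. Deviations of libraries with the same number correlated at -0.30, -0.03 and -0.17, and those with different numbers at -0.21 to 0.35. With so few libraries, these values cannot tell whether the numbers pair mice. Depth limits what can be said of Erbb4, Epgn, Nrg1, Nrg2 and Nrg3.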
